A study of Homo sapiens with 6 samples.

Results

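CYP1B1 and the genes of the aryl hydrocarbon receptor (AHR) pathway were examined in SK-BR-3 cells given an siRNA against GRB2. The 10 genes were taken by symbol from the 30327 genes of the count table: CYP1B1, CYP1A1, CYP1A2, AHR, AHRR, ARNT, TIPARP, NQO1, ALDH3A1 and UGT1A6. CYP1B1 was chosen because its reads more than doubled in this same comparison, so its values are a description and were not tested. The other members were chosen as known partners or targets of the receptor. Of the 10 genes, 8 had enough reads to be tested among 15801 genes, and ALDH3A1 and UGT1A6 did not.

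SK-BR-3 is a breast cancer cell line that overexpresses HER2 (ERBB2), and GRB2 is an adaptor protein that links receptor tyrosine kinases to RAS signalling. Poly(A) RNA was sequenced from 3 libraries described as si_NC, cells with a nontargeting control siRNA, and 3 described as si_GRB2. All 6 libraries came from this same line, so the groups differ by the siRNA named, and the methods print 1 siRNA sequence against GRB2. The titles of the treated libraries and the design text name GRB2 overexpression instead, and every direction below is that of the libraries labelled si_GRB2.

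GRB2 itself was therefore read first. It stood at 124, 130 and 126 CPM (reads of a gene scaled to a common library size) in si_NC and at 27.8, 28.1 and 29.6 CPM in the libraries labelled si_GRB2, a log2 fold change of -2.15 (SE 0.040, adjusted p = 3.87e-15, edgeR quasi-likelihood test with Benjamini-Hochberg adjustment). The counts went with the siRNA label and against the overexpression label. The libraries held 24810378 to 28532480 reads assigned to genes, and no label tied the 3 libraries of a group to separate cultures, so the p-values measure the spread between these libraries, which may be technical. Of 8 epithelial and HER2-amplicon markers of the line all were tested, ERBB2 rose from 3499 ± 74.9 to 4140 ± 132 CPM (SD, n = 3), 6 fell, and their summed level was 19712 to 20182 CPM in si_NC against 16501 to 17174 CPM. Of 7 fibroblast markers 1 was tested and not called, and they summed to 4.06 to 6.35 against 4.57 to 5.21 CPM, with DCN, LUM and PDGFRA at 2 reads or fewer over all libraries. Of 5 immune markers 1 of 2 tested fell, and they summed to 1.93 to 2.67 against 1.46 to 1.71 CPM, with PTPRC at 2 reads in all. Of 3 endothelial markers, summing to 28.9 to 30.9 against 17.5 to 21.4 CPM, CDH5 fell from 28.4 ± 1.14 to 18.5 ± 2.13 CPM and PECAM1 had 3 reads in all. Of 2 adipocyte markers in the table the 1 tested rose, and they summed to 0.856 to 1.26 against 1.42 to 2.11 CPM. Among all 15801 tested genes, 15.2% were called higher and 15.5% lower (adjusted p under 0.05, edgeR). Lists with 1 or 2 tested markers are too small to be set apart from these shares. The part of these shifts in the results below was not tested, and in bulk RNA fewer cells of a kind cannot be told apart from less RNA per cell.

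AHR is a ligand-activated transcription factor of the bHLH-PAS family. It waits in the cytoplasm with HSP90 chaperones, enters the nucleus when it binds a ligand such as a dioxin or a tryptophan metabolite, pairs with ARNT and binds DNA at the xenobiotic response element. Its classical targets are the CYP1 monooxygenases CYP1A1, CYP1A2 and CYP1B1, the conjugating and reducing enzymes NQO1, ALDH3A1 and UGT1A6, and the feedback inhibitors AHRR and TIPARP. CYP1B1 is known in breast tissue for the hydroxylation of oestradiol.

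The core of that element, GCGTG, and its longer form, TNGCGTG, were searched on both strands in RefSeq promoters (GRCh38.p14, 250 bases before to 50 after a start) and in the 2000 bases before each start. Every long form also holds a core. Of the members, 8 had a promoter in the table, at 12 starts. The windows below are printed because they place the receptor's motif near members whose transcripts went different ways: CYP1A1 with no change called, ARNT with a rise, TIPARP and NQO1 with a fall, and AHRR with too few reads to decide. Capitals mark the long form, which reads CACGCNA when it lies on the other strand, and each window is written 5′ to 3′ on the strand of the gene.
CYP1A1, 503 bases before the start, chr15:74726014-74726043, minus strand: cgcagcgcttctCACGCGAgccgggactca
CYP1A1, 898 bases before, chr15:74726409-74726438, minus strand: atgtcgccggcgCACGCAAgctagccgggg
CYP1A1, 986 bases before, chr15:74726497-74726526, minus strand: tccggtccttctCACGCAAcgcctgggcac
CYP1A1, 1061 bases before, chr15:74726570-74726599, minus strand: ccctccccccTCGCGTGactgcgagccccc
CYP1A1, 1385 bases before, chr15:74726896-74726925, minus strand: ggttgagctaggCACGCAAatacaactttt
ARNT, 633 bases before the start, chr1:150877213-150877242, minus strand: ttgcccagacTGGCGTGcagtggcgctatc
ARNT, 1176 bases before, chr1:150877756-150877785, minus strand: gccaggcgtgTGGCGTGcgcctgtaatccc
TIPARP, 676 bases before the start at 156676664, chr3:156675978-156676007, plus strand: gcgcgcgcgcTTGCGTGtgtacgcgcagac
NQO1, 2 bases after the start, chr16:69726542-69726571, minus strand: ccgtgcactacaCACGCGActcccacaagg
AHRR, 32 bases before the start at 321714, chr5:321672-321701, plus strand: ggcgggcggcTCGCGTGccggggtggggca

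CYP1A1 held 5 long forms and 11 cores in its 2000 bases, against a median of 2 cores over 35116 such windows. The long form was in 28.6% of all those windows and the core in 78.5%, and in the 300-base promoters the shares were 5.51% and 36.5%. CYP1A2 had 1 core and no long form, and AHR had no core before its start and 1 core after it. ARNT held 2 long forms, and a long form in either window was found in 6 of the 8 members. The TIPARP window printed above lies after the other starts of that gene, at 156674590 and 156674926. A different long form, not printed, lies 1530 bases before the first of these and 1866 before the second. A match describes these letters only, and neither it nor its absence says whether the receptor binds there. CYP1B1 and ALDH3A1 are named only.

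CYP1B1 (ENSG00000138061.12, chr2:38066973-38109902, minus strand, GENCODE 44 on GRCh38) oxidizes polycyclic hydrocarbons and oestrogens. It had 83.4, 80.6 and 83.1 CPM in si_NC and 181, 168 and 188 CPM in the libraries labelled si_GRB2. The mean went from 82.3 ± 1.55 to 179 ± 10.3 CPM (SD, n = 3), a 2.17-fold difference (log2 1.12, SE 0.040). The lowest treated library was far above the highest control library, and the raw reads, 2053 to 2338 against 4557 to 4757, show the same gap. In FPKM, the authors' unit scaled to gene length and library depth, the level was 11.0 ± 0.482 against 24.7 ± 1.34. This value, on which it was chosen, was the 5th largest log2 fold change of 10624 tested genes with a mean of at least 5 CPM, of which 8 at least doubled. CYP1B1-AS1 and RMDN2 overlap it on the other strand, with reads equal to 1.54% and 0.596% of those of CYP1B1.

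**Figure D1:**
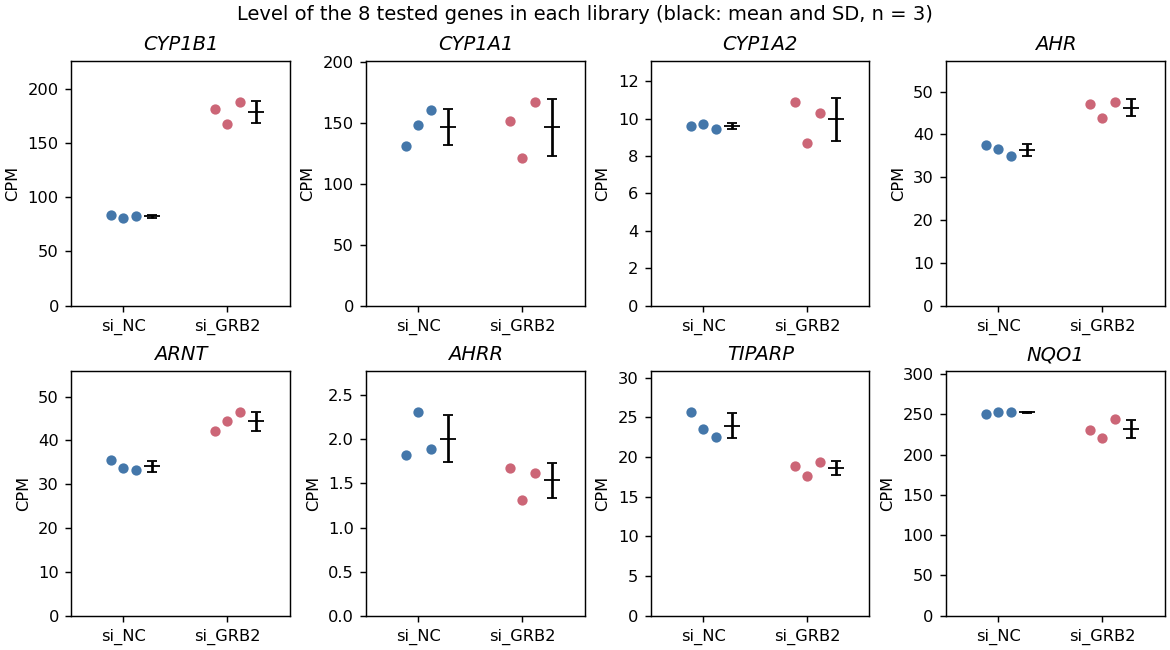
Level of each tested gene in CPM (vertical axes from 0) in the 3 si_NC and 3 si_GRB2 libraries, as points, with the mean and SD in black. CYP1B1 separates widely, CYP1A1 and CYP1A2 overlap between groups, AHR and ARNT are higher and TIPARP lower in the libraries labelled si_GRB2.

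The closest relatives of CYP1B1, CYP1A1 and CYP1A2, were not called in either direction. CYP1A1 (ENSG00000140465.14, chr15:74719542-74725536, minus strand), the hydrocarbon hydroxylase most used as a readout of the receptor, had 131, 148 and 160 CPM in si_NC and 151, 121 and 167 CPM in si_GRB2. The groups overlapped, and both the lowest and the highest library were labelled si_GRB2. The means were 146 ± 14.3 and 147 ± 23.3 CPM, with a log2 fold change of 0.0021 (SE 0.084, 95% interval -0.18 to 0.18, adjusted p = 0.99 by the edgeR quasi-likelihood test). A rise like that of CYP1B1 lies outside that interval, and a change of up to 0.18 on the log2 scale in either direction lies inside it.

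CYP1A1 was also among the most variable genes within a group. Its coefficient of variation was 9.76% in si_NC and 15.9% in si_GRB2, at percentiles 92.2 and 98.1 of genes with at least 5 CPM, where the medians were 3.59% and 3.75%. CYP1B1 varied by 1.89% and 5.76%.

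CYP1A2 (ENSG00000140505.7, chr15:74748845-74756607, plus strand), which lies next to CYP1A1 and metabolizes caffeine and aromatic amines, had 9.63, 9.73 and 9.45 CPM against 10.9, 8.70 and 10.3 CPM. The control libraries lay inside the range of the treated ones. Its log2 fold change was 0.056 (SE 0.094, 95% interval -0.14 to 0.26, adjusted p = 0.718 by edgeR).

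Because CYP1B1 was chosen for its rise, its ratio to CYP1A1 restates that choice and is given as a description only. In FPKM it was 0.357, 0.305 and 0.293 in si_NC and 0.672, 0.776 and 0.631 in si_GRB2, with no overlap. The ratio of CYP1A2 to CYP1A1 was 0.0636 to 0.0786 in si_NC and 0.0664 to 0.0776 in si_GRB2, which overlap.

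Among all P450 genes, 45 were in the table, 33 of them under 1 CPM, and 18 were tested. Beside CYP1B1, which was chosen on its value and not tested, CYP51A1, a sterol demethylase, rose from 211 ± 5.19 to 239 ± 6.19 CPM (adjusted p = 0.000282), and CYP4Z1, a fatty acid hydroxylase of breast tissue, rose from 13.3 ± 0.925 to 16.3 ± 1.48 CPM (adjusted p = 0.00915, edgeR). These 2 were named after their values were seen, and CYP4Z1 was no longer called without si_GRB2 replicate 1 (adjusted p = 0.0576). Of all tested genes 15.2% were called higher. None of the 18 was called lower, where 15.5% of all genes were. The 18 include CYP1B1, for which this was fixed by its choice. With so few genes these counts do not set the P450 genes apart. CYP19A1, the aromatase that makes oestrogens, stood at 0.660 against 0.332 CPM (log2 -0.96, adjusted p = 0.0762, edgeR). Its reads were 13, 25 and 15 in si_NC and 9, 11 and 6 in si_GRB2. It passed the filter on low counts through the si_NC libraries, where it is higher. It was called lower without si_NC replicate 1 (log2 -1.17, adjusted p = 0.0426) and with the replicate number as a block (log2 -0.97, adjusted p = 0.0479). In the 10 other alternatives that gave an adjusted p it was not called. Without si_NC replicate 2 the log2 fold change was -0.58 (adjusted p = 0.373). DESeq2 and the limit of 10 counts in every library gave no adjusted p.

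**Figure D2:**
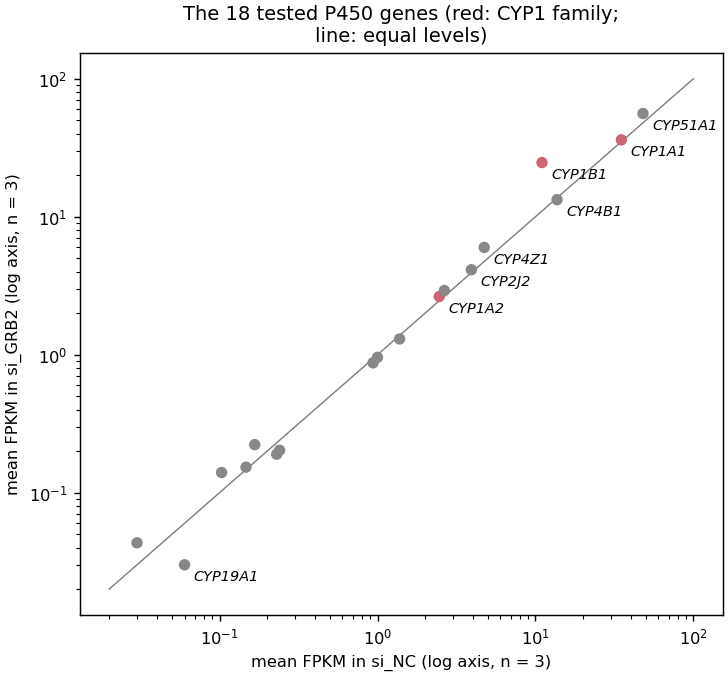
Mean FPKM of the 18 tested P450 genes in si_NC (horizontal, log axis) and si_GRB2 (vertical, log axis), 3 libraries each, with the CYP1 family in red and a line of equal levels. CYP1B1 lies off the line, at 11.0 against 24.7 FPKM, while CYP1A1 and CYP1A2 lie on or close to it.

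Both partners of the receptor dimer were higher in the libraries labelled si_GRB2. AHR (ENSG00000106546.14, chr7:16916359-17346152, plus strand) had 37.5, 36.6 and 34.9 CPM in si_NC and 47.0, 43.9 and 47.6 CPM in si_GRB2. The groups did not overlap, and the difference was 1.27-fold (log2 0.34, SE 0.047, 95% interval 0.25 to 0.44, adjusted p = 3.26e-05 by edgeR). ARNT (ENSG00000143437.21, chr1:150809713-150876708, minus strand), the partner that AHR shares with the hypoxia-inducible factors, had 35.5, 33.6 and 33.2 CPM against 42.2, 44.4 and 46.5 CPM. These groups did not overlap either, with a 1.30-fold difference (log2 0.38, SE 0.048, 95% interval 0.28 to 0.48, adjusted p = 1.67e-05).

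The balance between the partners did not separate the groups. The ratio of AHR to ARNT in FPKM was 0.846, 0.872 and 0.844 in si_NC and 0.893, 0.792 and 0.821 in si_GRB2, and the groups overlapped. Neither gene reached a fold change of 1.5.

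Of the feedback inhibitors, TIPARP was lower and AHRR was not called. TIPARP (ENSG00000163659.13, chr3:156673235-156706770, plus strand), an ADP-ribosyltransferase that the receptor induces and that in turn inhibits it, had 25.7, 23.6 and 22.6 CPM in si_NC and 18.9, 17.6 and 19.4 CPM in si_GRB2. Every treated library was below every control library, and the fold was 0.776 (log2 -0.37, SE 0.062, 95% interval -0.50 to -0.23, adjusted p = 0.00029 by edgeR). The ratio of TIPARP to AHR in FPKM was 1.15, 1.08 and 1.09 in si_NC and 0.675, 0.675 and 0.681 in si_GRB2.

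AHRR (ENSG00000063438.20, chr5:321714-438291, plus strand), the repressor that competes for ARNT, was near the limit of counting, with 51, 59 and 53 reads in si_NC and 42, 36 and 41 in si_GRB2. The log2 fold change was -0.39 (SE 0.20, 95% interval -0.80 to 0.027), and the gene was not called (adjusted p = 0.155, edgeR). The libraries did not overlap, but the interval includes no change. AHRR also shares exons on the same strand with the readthrough gene PDCD6-AHRR, whose 2281 reads were 809% of the 282 reads of AHRR, so the count of AHRR is uncertain. PDCD6-AHRR stood at 14.0 ± 0.711 and 14.5 ± 0.771 CPM (log2 0.050, adjusted p = 0.658).

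The conjugating and reducing enzymes showed a small fall or almost no reads. NQO1 (ENSG00000181019.13, chr16:69706996-69726668, minus strand), a quinone reductase that both AHR and NRF2 can induce, had 251, 253 and 253 CPM in si_NC and 231, 221 and 244 CPM in si_GRB2. The groups did not overlap in CPM, and the fold was 0.918 (log2 -0.12, SE 0.034, 95% interval -0.20 to -0.053, adjusted p = 0.0098 by edgeR). This call was lost without si_GRB2 replicate 2 (log2 -0.089, adjusted p = 0.0766). In the deposited FPKM the groups overlapped, at 65.86 to 71.23 against 62.25 to 68.74, and limma did not call the gene (log2 -0.080, adjusted p = 0.505).

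ALDH3A1 (ENSG00000108602.18, chr17:19737984-19748943, minus strand), an aldehyde dehydrogenase, had 1, 4 and 3 reads in si_NC and 2, 1 and 0 in si_GRB2. UGT1A6 (ENSG00000167165.19, chr2:233691607-233773300, plus strand), a glucuronosyltransferase for phenols, had 2 reads, both in si_GRB2 replicate 2. A difference in either gene was not detectable at this depth. UGT1A6 shares exons with other genes of the UGT1A locus, so reads could be split among them, and the 5 UGT1A genes of the table summed to 2.75 to 4.06 CPM in si_NC and 2.11 to 2.40 CPM in si_GRB2.

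**Figure D3:**
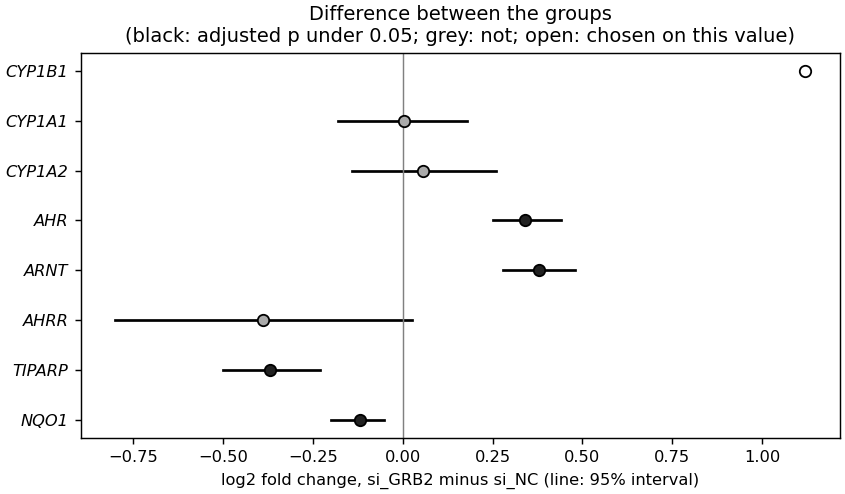
Log2 fold change of each tested gene (si_GRB2 minus si_NC, horizontal axis) with its 95% interval, filled black where the adjusted p is under 0.05 and grey where it is not, and with CYP1B1 open because it was chosen on this value. AHR and ARNT lie right of 0, TIPARP and NQO1 left of it, and the intervals of CYP1A1, CYP1A2 and AHRR include 0.

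Of the 7 tested members other than CYP1B1, 2 were called higher and 2 lower at an adjusted p under 0.05, against 15.2% and 15.5% of all 15801 genes. None of the 7 passed stricter limits, an adjusted p under 0.01 and a change of more than 1.5-fold either way, which 2.52% of all genes did. In 5 of the 7 the libraries of the groups did not overlap, as in 42.3% of all genes. The median log2 fold change of the 7 was 0.0021 and that of all genes 0.0019. With so few members these counts do not set the battery apart from other genes.

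Per length, the members covered a wide range of levels. In si_NC the order in mean FPKM was NQO1 (68.3 ± 2.72), CYP1A1 (35.0 ± 4.63), CYP1B1 (11.0 ± 0.482), ARNT (4.24 ± 0.0896), TIPARP (4.01 ± 0.142), AHR (3.62 ± 0.0115), CYP1A2 (2.46 ± 0.0656) and AHRR (0.170 ± 0.0200), with ALDH3A1 listed at 0.02 (mean of 3) and UGT1A6 listed at 0 in all 3 libraries. ARNT and TIPARP overlapped there, at 4.14 to 4.30 and 3.91 to 4.17 FPKM, and the other neighbours from NQO1 to AHRR did not. In si_GRB2 the order was the same except that AHR (4.75 ± 0.180) stood above TIPARP (3.21 ± 0.138).

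The genes around CYP1B1 on chromosome 2 showed no call. Within 500 kb, 16 genes had reads and 6 were tested, with 0 called higher and 0 lower. Of all tested genes 15.2% and 15.5% were, so 6 genes are too few to set this stretch apart. The standard errors were large for RMDN2 (0.28), CYP1B1-AS1 (0.19) and RPLP0P6 (0.15). CDC42EP3, an effector of the GTPase CDC42, was at 47.2 ± 0.910 against 44.5 ± 1.65 CPM (log2 -0.085, adjusted p = 0.153), and ATL2, which shapes the endoplasmic reticulum, at 56.4 ± 2.24 against 56.1 ± 0.866 CPM (log2 -0.0054, adjusted p = 0.943). HNRNPLL, a splicing regulator, had a log2 fold change of -0.042 (adjusted p = 0.544), and the ribosomal protein pseudogene RPLP0P6 one of -0.065 (adjusted p = 0.798). The antisense gene CYP1B1-AS1 was at 1.82 ± 0.282 against 2.17 ± 0.264 CPM (log2 0.25, adjusted p = 0.363, all by edgeR). The labels describe a dUTP library that keeps the strand, but no source used here gives the strand setting of the counting, so reads of the pair may not be separated.

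**Figure D4:**
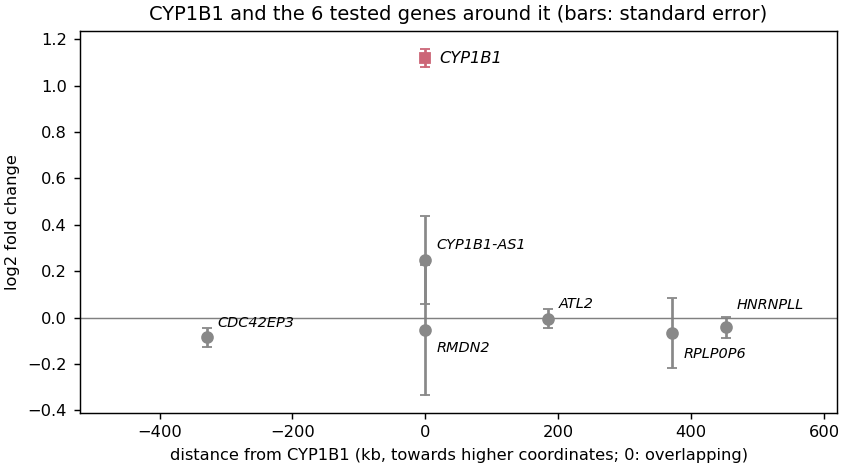
Log2 fold change (vertical axis, bars for the standard error) of CYP1B1, as a red square, and of the 6 tested genes within 500 kb, as grey points, by distance in kb from CYP1B1. CYP1B1 stands at 1.12, and the other 6 lie between -0.085 and 0.25.

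The genes whose levels ran most like CYP1B1 were ranked by Pearson r of log2 CPM over the 6 libraries, among 10623 genes with a mean of at least 5 CPM. They were TMEM167B (0.9985), HTATIP2 (0.9981), EPM2AIP1 (0.9977), PJA2 (0.9976) and PSMD2 (0.9975), and 101 genes exceeded 0.99. The libraries fall into the 2 groups, so r mostly follows the group difference. On log2(FPKM + 1) the first 5 were CLEC3A, EGF, FBXO32, PERP and GK5, and none was shared, so the ranking depends on the scale. Among the members r was 0.977 for AHR, 0.969 for ARNT, 0.316 for CYP1A2, 0.0565 for CYP1A1, -0.775 for NQO1 and -0.913 for TIPARP. AHR ranked 307 and ARNT 461 among the 10623 genes, so a high r to CYP1B1 is not particular to them.

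The wider pathway was read in 7 gene lists. Together they held 77 tested genes, of which 17 were called higher and 20 lower, where 15.2% and 15.5% of all tested genes were, and 7 passed the stricter limits that 2.52% of all genes passed. The counts of each list below are to be read against these shares, and none is called particular to its list. All adjusted p-values that follow are from the edgeR quasi-likelihood test.

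Of 13 tested chaperones and cofactors of the receptor, 3 rose, 2 fell and 8 were not called, with a median log2 fold change of 0.056. The coactivator NCOA1 rose from 16.8 ± 0.205 to 22.2 ± 0.645 CPM (log2 0.40, adjusted p = 4.06e-05), and RELB, an NF-κB subunit that can pair with AHR, fell by 0.37 on the log2 scale (adjusted p = 0.000593). The chaperone HSP90AA1 rose by a log2 of 0.12 (adjusted p = 0.00105), and its partner PTGES3 was not called (log2 0.056, adjusted p = 0.204).

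Of 13 tested further genes known as receptor targets, 2 rose, 5 fell and 6 were not called, with a median of -0.081. SLC7A5, a transporter of tryptophan and other large amino acids, rose from 409 ± 9.84 to 582 ± 17.0 CPM (log2 0.51, adjusted p = 1.54e-09). LMCD1, a LIM-domain cofactor, fell from 21.7 ± 0.932 to 13.6 ± 0.651 CPM (log2 -0.67, adjusted p = 6.94e-07), and NEDD9, a scaffold of focal adhesions, from 48.6 ± 1.08 to 30.7 ± 1.29 CPM (log2 -0.66, adjusted p = 1.79e-08). ALDH1A3, a retinaldehyde dehydrogenase, and HES1, a NOTCH effector that the study picked from these same libraries, also fell (log2 -0.55 and -0.59, adjusted p = 7.54e-09 and 2.88e-08). XDH, xanthine dehydrogenase, had 67 reads in all (log2 -1.36, adjusted p = 0.0206). Its reads were 15, 13 and 21 in si_NC and 3, 10 and 5 in si_GRB2. XDH passed the filter on low counts only through the si_NC libraries, where it is higher. It had no adjusted p in the DESeq2 fit or when each library had to hold 10 counts. It was also not called without si_NC replicate 3, si_GRB2 replicate 1 or si_GRB2 replicate 3 (log2 -1.17, -1.07 and -1.27).

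Of 7 tested enzymes of tryptophan and kynurenine metabolism, 3 rose, 1 fell and 3 were not called, with a median of 0.057. TDO2, which opens the tryptophan ring at the entry to this path, had 6, 14 and 11 reads in si_NC and 30, 41 and 38 in si_GRB2. Every treated library was above every control library, and its log2 fold change of 1.86 (SE 0.31, adjusted p = 0.000227) was the largest of all 15801 genes, at a low level of 0.385 ± 0.168 against 1.40 ± 0.176 CPM. TDO2 passed the filter on low counts only through the si_GRB2 libraries, where it is higher, and it had no adjusted p in the DESeq2 fit or when each library had to hold 10 counts. On log2(FPKM + 1), a scale that compresses low values, the difference was 0.21 (adjusted p = 0.0219, limma). AFMID, which makes kynurenine from the product of TDO2, rose from 69.7 to 93.1 CPM (log2 0.42, adjusted p = 4.96e-07), and KYAT3, a kynurenine aminotransferase, from 42.5 to 51.6 CPM (log2 0.28, adjusted p = 0.000146). The aminotransferase AADAT fell (log2 -0.70, adjusted p = 0.0338), a call lost without si_NC replicate 2 or 3 or si_GRB2 replicate 2 or 3 (log2 -0.77, -0.50, -0.70 and -0.56).

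Of 22 tested genes of the NRF2 battery, which NQO1 also belongs to, 5 rose, 8 fell and 9 were not called, with a median of 0.0016. TALDO1, a pentose phosphate enzyme that the study picked from these libraries, fell from 336 to 197 CPM (log2 -0.77, adjusted p = 2.2e-11), AKR1B10, an aldo-keto reductase, from 2.54 to 1.22 CPM (log2 -1.05, adjusted p = 0.000641), and TXNRD1, thioredoxin reductase, from 696 to 590 CPM (log2 -0.24, adjusted p = 4.33e-06). ME1, the NADPH-making malic enzyme, rose from 60.4 to 86.8 CPM (log2 0.52, adjusted p = 2.49e-07). NRF2 itself, encoded by NFE2L2, was at 71.5 and 73.8 CPM (log2 0.044, adjusted p = 0.433).

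Of 8 tested bHLH-PAS relatives, 1 rose, none fell and 7 were not called, with a median of 0.11. EPAS1, a hypoxia-inducible factor that also pairs with ARNT, rose from 229 ± 2.28 to 259 ± 7.55 CPM (log2 0.17, adjusted p = 0.000221), and HIF1A was not called (log2 -0.047, adjusted p = 0.457).

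Of 6 tested electron donors of P450 enzymes, 2 were called higher and none lower, with a median of 0.062. CYB5R3, cytochrome b5 reductase, was at 93.8 ± 1.93 against 104 ± 4.29 CPM (log2 0.14, adjusted p = 0.00714), and was not called without si_NC replicate 2 or si_GRB2 replicate 2 (adjusted p = 0.0552 and 0.0533). POR, the reductase that supplies electrons to CYP1B1, was at 359 ± 5.87 against 379 ± 11.2 CPM (log2 0.079, adjusted p = 0.042), and was not called under 11 of 15 alternatives, among them the removal of any si_NC library or of si_GRB2 replicate 1 or 2.

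Of 9 tested genes of oestrogen metabolism and its receptors, 1 rose, 4 fell and 4 were not called, with a median of -0.36. HSD17B1, which makes oestradiol, fell from 17.7 ± 1.48 to 9.84 ± 0.409 CPM (log2 -0.84, adjusted p = 5.86e-07), and STS, steroid sulfatase, from 22.5 to 16.4 CPM (log2 -0.46, adjusted p = 5.01e-05). SULT1A1, a sulfotransferase, rose from 38.9 to 50.2 CPM (log2 0.37, adjusted p = 9.82e-06).

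**Figure D5:**
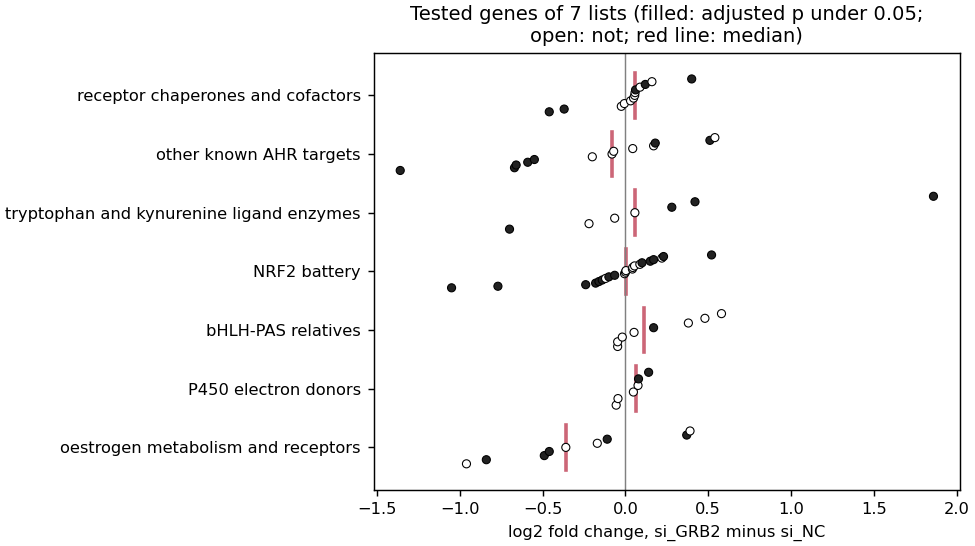
Log2 fold change (si_GRB2 minus si_NC, horizontal axis) of each tested gene in 7 lists, filled where the adjusted p is under 0.05 and open where it is not, with the list's median as a red line. Each list but the bHLH-PAS relatives and the electron donors holds called genes on both sides of 0, and TDO2 is the point at 1.86.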

How the data were processed

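SK-BR-3 libraries, 3 si_NC and 3 si_GRB2, were grouped by their descriptions. The authors aligned reads to GRCh38 with HISAT2 (named in the submitters' processing notes without a version) and retained those that mapped to a single place. What the authors deposited is an unnormalized count of reads per gene, and FPKM, scaled by the authors to gene length and library depth. The counting tool, strand setting and annotation release are not given in the sources used here. Of 30327 gene IDs, 30246 were found in GENCODE 44, which gave positions.

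edgeR 4.0.16 (R 4.3.3) computed TMM factors, kept 15801 genes with filterByExpr, and compared the groups without covariates by its quasi-likelihood test, with p-values adjusted by Benjamini-Hochberg over those genes. A call is an adjusted p under 0.05. Stricter limits take the study's fold limit of 1.5 and put its limit of 0.01, which the methods state for a p value, on the adjusted p. CPM are TMM-normalized, and log2 CPM use a prior count of 2. Levels between genes use FPKM. An exact permutation test of GRB2 gave p = 0.1, the smallest that 3 against 3 allows. The script was checked on simulated counts. Depth was 24810378 to 28532480 reads, and intervals of lowly counted genes are wide.

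Members, lists and tests were chosen with earlier results of these data known. Named were all members, GRB2, up to 4 called genes per list by log2 fold change with the list's most abundant genes as counter-examples, genes within 500 kb of CYP1B1 at 1 CPM or more, and the 5 most like CYP1B1. A gene that this rule names is not reported here. The alternatives tried were a DESeq2 1.42.0 fit, edgeR with size factors from DESeq2, a robust fit, no filter or at least 10 counts in every library, limma 3.58.1 on log2(FPKM + 1) or log2(FPKM + 0.1) or with a mean FPKM of at least 1, a replicate block, and leaving out each library.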

Additional observations from a re-analysis of the deposited data

How the results depend on the processing

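CYP1B1 stayed between 1.08 and 1.16 on the log2 scale over 15 alternatives. AHR (0.31 to 0.38), ARNT (0.34 to 0.42) and TIPARP (-0.41 to -0.25) kept their calls in all 15, CYP1A1 (-0.10 to 0.12), CYP1A2 (-0.013 to 0.15) and AHRR (-0.46 to -0.046, 14 alternatives) were never called, and GRB2 stayed between -2.18 and -1.91. NQO1 was not called by limma on FPKM (log2 -0.080 with a pseudocount of 1, -0.081 with 0.1, and -0.080 with a mean FPKM of at least 1), and ranged from -0.16 to -0.089 when single libraries were left out. With those 3 FPKM settings 1 member was called lower in place of 2, and 1 to 2 with a library left out. At the stricter limits 0 of the 4 called members remained, 398 of all genes and 7 of the pathway lists' genes. limma on FPKM called 834 genes higher with a pseudocount of 1 and 927 with 0.1, and 566, 607 and 987 lower with these and with a mean FPKM of at least 1. Of the pathway lists' genes, 8 and 8 were then higher and 8, 8 and 11 lower. The cause was not tested. Deviations of same-numbered libraries from their group means correlated at 0.232, -0.0948 and 0.0804, and those of other pairs at -0.282 to 0.228. Deviations from a mean of 3 libraries depend on each other, so this check cannot decide whether the numbers pair the libraries. With the replicate block 2390 genes were called higher and 2417 lower, and the same number of members, 2 higher and 2 lower. Depth limits AHRR, ALDH3A1, UGT1A6, TDO2, XDH and CYP19A1.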
